A study of Sus scrofa with 5 samples.

Results

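A set of 10 genes of vasoactive signalling was followed through the abdominal aorta of Ossabaw pigs, a breed that becomes obese on rich feed. They are the 4 regulator of G protein signalling genes RGS2, RGS4, RGS5 and RGS6 and the 6 receptor genes CYSLTR2, EDNRA, EDNRB, AGTR1, PTGER3 and HRH1, 10 of the 35670 features in the count matrices. The genes were picked on measured values of these same pigs, among them their levels in obese and control animals and in clusters of nuclei, so the differences between diets given for them describe the pigs and support nothing further. Of these, 9 carried their symbol in the deposited features and CYSLTR2 was named through a table of gene identifiers. Nuclei were isolated from snap-frozen abdominal aorta, sorted on the DNA dye DRAQ5 and counted by 3′ droplet sequencing, from 5 castrated males whose diets began at 12 months of age. The obese group (replicates 1 to 3) ate the high-fat, high-fructose diet that the labels write as HF/HFru, and the control group (replicates 1 and 2) ate chow. The series calls the aortae atherosclerotic and healthy. The diet lasted 6 months by the sample labels and 9 months by the series design. Each pig gave 1 library, so the pig is the replicate, and a group of 3 was compared with a group of 2.

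G protein-coupled receptors on vascular smooth muscle switch heterotrimeric G proteins on, and RGS proteins shorten the signal by speeding GTP hydrolysis on the alpha subunit. RGS2 acts chiefly on the Gq class, through which endothelin, angiotensin II, histamine and cysteinyl leukotrienes raise calcium and contract the vessel, whereas RGS6 belongs to a subfamily that pairs with a G protein beta subunit and acts on the Gi and Go classes. RGS5 is a common marker of pericytes and arterial smooth muscle. EDNRA and EDNRB encode the endothelin receptors, AGTR1 the type 1 angiotensin II receptor, PTGER3 a prostaglandin E2 receptor that lowers cyclic AMP, HRH1 a histamine receptor and CYSLTR2 a receptor for cysteinyl leukotrienes.

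The 250 bases before the RefSeq gene start are shown for 3 of the genes on which the values below turn, RGS2 and CYSLTR2 for the size of their difference between diets and RGS6 because it marks a cluster of smooth muscle nuclei. They were read from the RefSeq genome Sscrofa11.1 and joined to the counts by gene name only, since the labels name the build Sscrofa11 and the count files hold no coordinates. Each is written 5′ to 3′ on the gene's own strand, and capitals mark matches on either strand to 4 motifs, which may overlap each other. The core of the cyclic AMP response element was searched as TGACG. The AP-1 motif was searched as TGANTCA. For the GC box the letters were GGGCGG. The TATA box was searched with the letters TATAAA. A match describes the letters and is not a binding site.
RGS2 (chr10:940084-940333, minus strand): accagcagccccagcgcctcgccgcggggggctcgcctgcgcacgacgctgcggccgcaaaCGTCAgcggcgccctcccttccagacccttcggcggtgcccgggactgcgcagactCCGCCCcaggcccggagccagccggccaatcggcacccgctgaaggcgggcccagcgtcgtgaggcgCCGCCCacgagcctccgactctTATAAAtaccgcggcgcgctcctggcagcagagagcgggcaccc
CYSLTR2 (chr11:19011016-19011265, minus strand): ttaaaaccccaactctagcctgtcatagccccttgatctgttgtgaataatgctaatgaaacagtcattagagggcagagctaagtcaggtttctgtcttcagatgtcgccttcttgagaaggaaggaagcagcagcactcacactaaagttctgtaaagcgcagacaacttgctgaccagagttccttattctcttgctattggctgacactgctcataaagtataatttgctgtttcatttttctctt
RGS6 (chr7:95364962-95365211, plus strand): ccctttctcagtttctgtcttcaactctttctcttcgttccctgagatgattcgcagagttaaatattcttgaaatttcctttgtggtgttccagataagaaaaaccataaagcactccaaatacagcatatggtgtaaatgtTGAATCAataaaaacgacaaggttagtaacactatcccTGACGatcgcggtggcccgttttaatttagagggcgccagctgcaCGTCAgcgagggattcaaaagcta
The RGS2 window held 1 cyclic AMP response element core, 189 bases before the start, 1 TATA box, 44 bases before it, and 2 GC boxes. The RGS6 window held 2 cyclic AMP response element cores and 1 AP-1 match, and the CYSLTR2 window held none of the 4 motifs. Among the windows of 19556 protein-coding genes, 19.6% held the cyclic AMP response element core, 5.27% the AP-1 motif, 45.9% a GC box and 9.77% a TATA box. In the same assembly RGS5 (chr4:87286953-87340816, plus strand) and RGS4 (chr4:87383336-87390478, minus strand) lie on the same stretch of chromosome 4, with the gene bodies apart.

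The libraries held 21516249 to 47724416 UMIs, and 41986 nuclei were kept, 5437 to 11075 per pig. They formed 28 clusters, of which 6 were left unnamed, and 6 named classes had at least 20 nuclei in every pig. Any pair of libraries shared 10 to 29 cell barcodes, at most 0.386% of the smaller library. All 10 matched smooth muscle markers had UMIs in smooth muscle-like nuclei, where they summed to 9345 to 11220 CPM (UMIs scaled to the same total in every sum) in obese and 9702 and 11740 CPM in control pigs. Macrophage markers summed there to 32.3, 95.8 and 13.02 CPM in obese and to 5.11 and 9.00 CPM in control pigs, with 10 of 10 matched markers detected, and their part in the values below was not tested. The pigs filled the smooth muscle-like class from different clusters. Cluster 7, led by ST6GALNAC5 and HMCN1, held 21.9% and 2.41% of it in control replicates 1 and 2 and 0.22% to 0.24% in obese pigs. Of its 2097 nuclei, 1946 were of control replicate 1. Cluster 5, whose first gene was PTGER3, held 26.5%, 18.8% and 8.90% in obese pigs and 0.29% and 1.3% in control pigs. Single pigs filled others: cluster 2 held 54.1% of the class in obese replicate 2 and at most 16.2% in any other pig, and cluster 6, led by ANKRD1 and GPRC5A, held 23.1% in obese replicate 3 and at most 7.64% elsewhere. Cluster 14, named by its smooth muscle markers but led by the heat-shock genes HSPA6 and DNAJB1, held 9.17% in control replicate 2 and 0.01% to 3.46% in the other pigs. Unnamed clusters took 8.28% to 15.9% of all nuclei in obese pigs and 6.19% and 2.72% in control pigs, most of those of obese pigs in cluster 9, led by SERPINE2 and ADAM12, with 608, 582 and 443 nuclei in obese and 10 and 25 in control pigs.

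These clusters depend on the random start of the clustering. Over 5 other seeds, chosen after seeing the data, 26 to 28 clusters formed, and their adjusted Rand index with the clusters used here, which is 1 for identical partitions, was 0.527 to 0.672. Class names were steadier. Of the nuclei named here, 99.66% to 99.83% of pericyte-like, 99.47% to 99.92% of fibroblast-like, 99.13% to 99.83% of endothelial-like and 88.2% to 98.5% of smooth muscle-like nuclei took the same name. Counts over smooth muscle-like clusters are therefore given with their values at the other seeds.

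All levels below are CPM of UMIs summed per pig and class, and the level of a gene is compared between classes only for that gene. Over the 6 classes with both diets pooled, EDNRA, EDNRB and RGS6 were highest in pericyte-like nuclei and PTGER3 in smooth muscle-like nuclei, with every pig above every pig of the next class. EDNRB had a mean of 629 ± 160 CPM in pericyte-like nuclei (SD, n = 5) and 60.4 ± 36.9 CPM in Schwann cell-like nuclei, the next in order. RGS6 had 1579 ± 348 CPM in pericyte-like and 284 ± 69.5 CPM in smooth muscle-like nuclei, and EDNRA 340.1 ± 278.5 and 61.1 ± 24.9 CPM. PTGER3 had 807 ± 309 CPM in smooth muscle-like nuclei and 173 ± 119.5 CPM in T or NK cell-like nuclei. RGS5, HRH1 and RGS2 were also highest on average in smooth muscle-like nuclei, with 244 ± 71.7, 163 ± 43.5 and 89.5 ± 68.1 CPM. CYSLTR2 led in pericyte-like nuclei (51.2 ± 34.4 CPM), AGTR1 in fibroblast-like nuclei (11.6 ± 10.2 CPM) and RGS4 in endothelial-like nuclei (6.83 ± 9.86 CPM). For these 6 genes the ranges of the first and second class overlapped, so their order is not clear of the spread between pigs. Lower in the order all neighbours overlapped except 1 pair, EDNRA in fibroblast-like nuclei and the class after it.

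**Figure D1:**
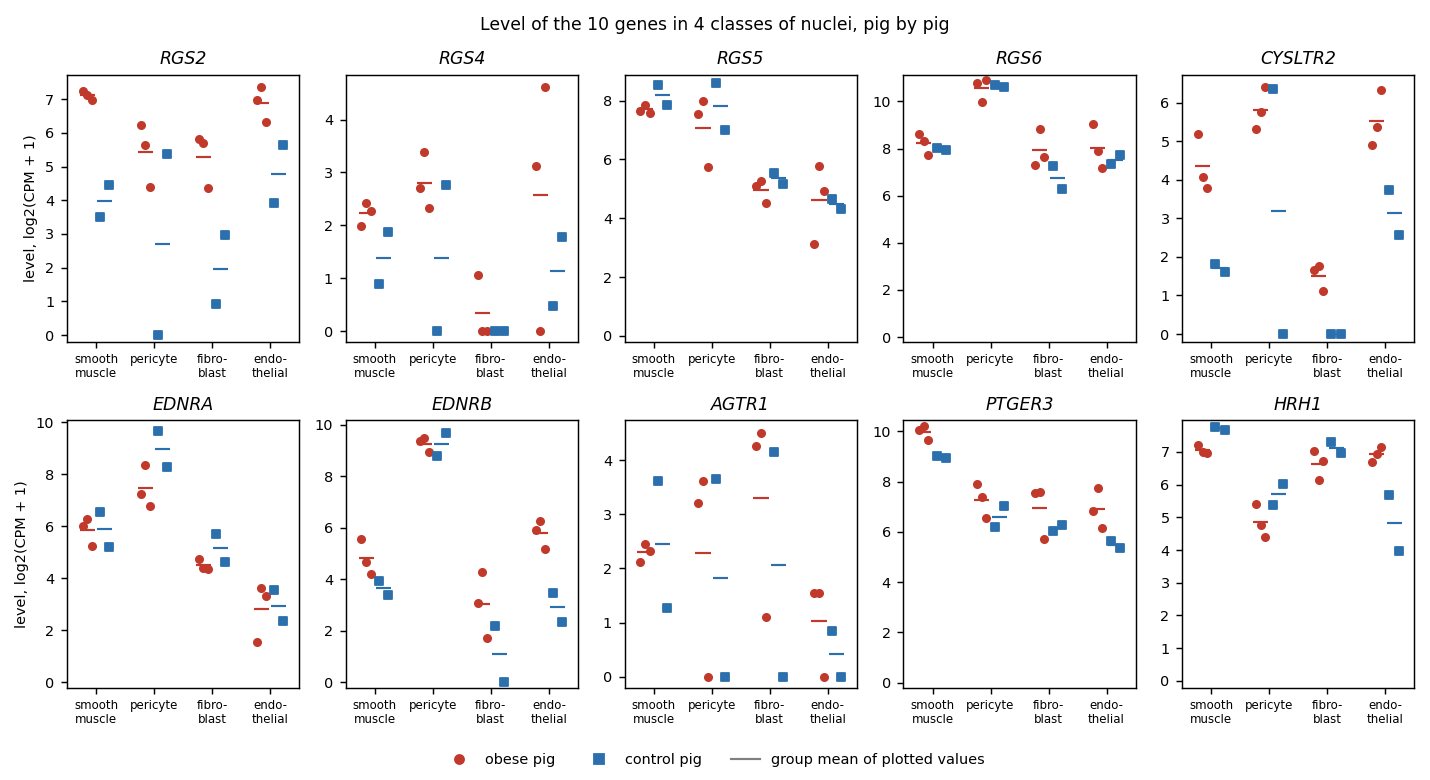
Level of each gene in smooth muscle-like, pericyte-like, fibroblast-like and endothelial-like nuclei, as log2(CPM + 1), with 1 point per pig (red circles obese, blue squares control) and bars at the group means of the plotted values. RGS2, CYSLTR2 and PTGER3 stand apart between the diets in smooth muscle-like nuclei, and EDNRA, EDNRB and RGS6 are highest in pericyte-like nuclei in both diets.

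In smooth muscle-like nuclei RGS2 was the RGS gene that differed most between the diets. It reached 151, 139.6 and 126 CPM in obese replicates 1 to 3 and 10.4 and 20.8 CPM in control replicates 1 and 2. All 3 obese pigs were far above both control pigs, a difference of 3.11 on the log2 scale (SE 0.34) from 15.6 ± 7.36 to 139 ± 12.4 CPM. RGS4, at 2.98, 4.37 and 3.84 CPM in obese and 0.866 and 2.66 CPM in control pigs, was apart too, on 212 and 73 UMIs (1.07, SE 0.51), but gave 0.41 without control replicate 1 and 2.08 without control replicate 2. RGS5 was lower in every obese pig, with 201, 230.8 and 189 CPM against 368 and 231.7 CPM, obese replicate 2 and control replicate 2 being almost level (-0.57, SE 0.23, and -0.24 without control replicate 1). RGS6 was at 388, 316 and 212 CPM in obese and 258 and 245 CPM in control pigs, and the groups overlapped, with obese pigs both above and below (0.23, SE 0.26).

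Among the receptor genes of the same nuclei, CYSLTR2 had the largest difference. Its levels were 35.2, 15.8 and 12.7 CPM in obese pigs and 2.54 and 2.07 CPM in control pigs, on 1077 and 117 UMIs, a log2 difference of 3.16 (SE 0.49) with no overlap. PTGER3, whose product couples to Gi, was measured in obese pigs at 1054, 1174 and 805 CPM and in control pigs at 515 and 487.5 CPM, again without overlap (0.96, SE 0.22). EDNRB stood at 46.7, 24.6 and 17.3 CPM in obese and 14.3 and 9.59 CPM in control pigs, also apart (1.26, SE 0.41, and 0.74 without obese replicate 1). HRH1 was lower in every obese pig, at 146, 127 and 122 CPM against 217 and 201 CPM (-0.70, SE 0.20). EDNRA overlapped, with 62.85, 76.45 and 37.0 CPM in obese and 93.15 and 36.05 CPM in control pigs (-0.19, SE 0.37, and 0.61 without control replicate 1). For AGTR1, 11.3 CPM in control replicate 1 was above all other pigs, which lay between 1.42 and 4.48 CPM, and the groups overlapped (-0.73, SE 0.63, and 1.40 without control replicate 1).

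Counted over the list, every obese pig lay above both control pigs for 5 of the 10 genes (RGS2, RGS4, CYSLTR2, EDNRB and PTGER3) and below for 2 (RGS5 and HRH1), against 16.4% and 12.7% of the 17804 genes tested in this class. The quasi-likelihood test of edgeR with Benjamini-Hochberg adjustment over those genes called 1 of the 10, RGS2, at an adjusted p under 0.05, and 0.0899% of all genes. The list was picked with this contrast in view and the counts are not evidence for it. RGS2 lay just inside the threshold (edgeR adjusted p = 0.0485) and CYSLTR2 just outside (0.059). RGS2 was called in 3 of 5 fits with 1 pig left out, and not without obese replicate 1 (log2 difference 3.03) or control replicate 1 (2.66). It was not called with the size factors of DESeq2 in the edgeR fit (3.11, adjusted p = 0.0521) or with seed 2 of the clustering (3.11, edgeR adjusted p = 0.0574). CYSLTR2 was called without obese replicate 2 (3.38) or obese replicate 3 (3.40), and without the cluster led by ANKRD1 and GPRC5A (3.31, edgeR adjusted p = 0.0411). DESeq2 itself called RGS2, CYSLTR2 and PTGER3, and 520 of all 17804 genes. With 5 pigs in the fit, 3 degrees of freedom were left for the spread between them, and edgeR also borrows from the spread of other genes.

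RGS2 was compared in 9 of the 11 smooth muscle-like clusters, those with at least 10 nuclei in every pig. Of these, cluster 7 had 10, 14 and 18 nuclei in obese pigs. In each of the 9, RGS2 was higher in all 3 obese pigs than in both control pigs. Its means were 39.3 to 214 CPM in obese and 4.48 to 57.2 CPM in control pigs. That holds for 15 of the 17804 genes, or 0.0843%. At the other seeds it held in 10 of 10, 7 of 7, 8 of 8, 7 of 7 and 8 of 8 such clusters. The clusters divide the same 5 pigs and the genes were picked with such levels in view. The shares of all genes given here for RGS2 and PTGER3 are therefore no evidence for them. Of the 6 classes, 4 showed the same separation of RGS2 (smooth muscle-like, fibroblast-like, endothelial-like and Schwann cell-like, the last on few UMIs) and 2 overlapped. How many of all genes separated in as many classes was not counted. In smooth muscle-like, fibroblast-like and endothelial-like nuclei 16.4%, 13.2% and 19.7% of genes had every obese pig above. PTGER3 separated the same way in 8 of the 9 clusters, which 0.365% of genes did in at least 8, and in 8 of 10, 6 of 7, 6 of 8, 5 of 7 and 7 of 8 at the other seeds. The exception was cluster 11, where PTGER3 was at 67.2, 154 and 168.5 CPM in obese and 93.3 and 41.1 CPM in control pigs, far under its level in the class. RGS6 behaved otherwise. Every obese pig was below both control pigs in 5 of the 9 clusters and above in none, and below in 2 to 4 clusters at the other seeds. HRH1 was below in 5 of 9 and in 3 to 5, and RGS5 in 4 of 9 and in 1 to 4. EDNRA was below in 1 and overlapped in 8. How many of all genes lay below in as many clusters was not counted, so these counts of lower levels are values only. In the class as a whole 12.7% of genes lay below.

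**Figure D2:**
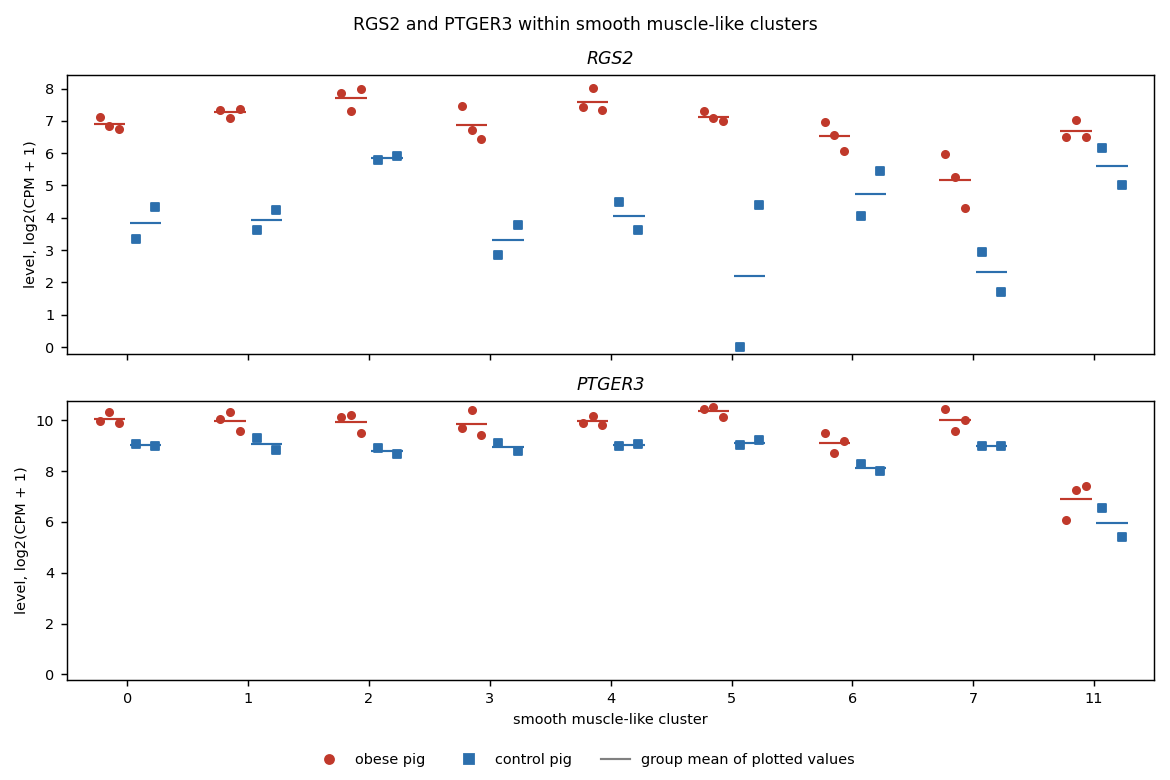
RGS2 (upper panel) and PTGER3 (lower panel) as log2(CPM + 1) in the 9 smooth muscle-like clusters with at least 10 nuclei in every pig, 1 point per pig (red circles obese, blue squares control), bars at the group means of the plotted values. Obese pigs are above control pigs in all 9 clusters for RGS2 and in 8 for PTGER3, whose level is low in cluster 11.

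The share of nuclei with a UMI was compared with that in T or NK cell-like nuclei, since RNA free in the suspension can give UMIs in any droplet. Its part in these values was not tested. After each nucleus was thinned to 1000 UMIs, 41.3%, 41.25% and 31.2% of smooth muscle-like nuclei of obese pigs and 26.4% and 23.3% of those of control pigs had a PTGER3 UMI (50.5%, 52.3%, 41.5%, 40.7% and 37.9% unthinned). T or NK cell-like nuclei had one in 21.95%, 10.5% and 13.04% in obese and in 16.7% and 3.45% in control pigs, out of 23 to 108 nuclei each (32.8%, 21.0%, 21.9%, 24.03% and 4.88% unthinned). The median depth was 2219 UMIs in smooth muscle-like and 1995 UMIs in T or NK cell-like nuclei. RGS2 was found in 12.0%, 11.2% and 8.86% of smooth muscle-like nuclei in obese pigs (22.1%, 21.5% and 15.7% unthinned), against 4.88%, 1.75% and 0 of T or NK cell-like nuclei, the last being 0 of 23 (14.1%, 13.6% and 0 unthinned). In control pigs the RGS2 shares of smooth muscle-like nuclei, 1.14% and 1.68% (2.91% and 4.55% unthinned), were not above those of T or NK cell-like nuclei, 1.85% and 3.45% (4.65% and 12.2% unthinned). The latter rest on 2 of 108 and 1 of 29 nuclei, too few to tell expression from free RNA. Whether the control values of RGS2 are expression is therefore not known, and the size of its difference depends on them. Whether T or NK cell-like nuclei lack these genes is not known from the data: for PTGER3 in obese replicate 1 their 21.95% was above the 18.2% of pericyte-like, 11.1% of fibroblast-like and 10.7% of endothelial-like nuclei and the 5.25% of cluster 11.

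RGS6, CYSLTR2, EDNRB and EDNRA had their highest mean level among smooth muscle-like clusters in number 11, led by STUM, CTNNA3, DGKB, CYSLTR2 and RGS6. It had 9 of 10 smooth muscle markers and 1073 nuclei, making up 7.24%, 4.70% and 2.09% of smooth muscle-like nuclei in obese pigs and 2.85% and 1.33% in control pigs. Because 2 of the 10 genes lead it, these shares are values only. Cluster 11 held 63.4% to 86.5% of all EDNRB UMIs of the smooth muscle-like class in obese pigs and 81.6% and 81.5% in control pigs. For RGS6 it held 62.0% to 76.7% in obese pigs and 42.0% and 24.5% in control pigs, and for CYSLTR2 79.3% to 92.4% and 59.8% and 40.0%. Of the EDNRA UMIs it held less, 7.99% to 22.9% in obese pigs and 24.6% and 9.69% in control pigs. Its share of HRH1 UMIs was 0.06% to 1.59%. In control replicate 2 more of the RGS6 UMIs, 44.5%, lay in cluster 4, which held 32.7% of the nuclei of the class there. This cluster was found again at each of the 5 other seeds, where 1 cluster took in 98.97% to 100% of it. The same nuclei also came together when the clustering was repeated without the 10 genes: 1 cluster of 1048 nuclei took in 96.2% of cluster 11.

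Within cluster 11, RGS6 was at 2819, 3358 and 3972 CPM in obese pigs and 2796 and 3194 CPM in control pigs, a log2 difference of 0.32 (SE 0.30) with overlapping groups. EDNRB overlapped as well, at 361, 216 and 452 CPM in obese and 301.5 and 417 CPM in control pigs (0.10, SE 0.39). CYSLTR2 did not: it had 286, 174 and 356 CPM in obese and 39.1 and 44.2 CPM in control pigs, on 903 and 63 UMIs (2.91, SE 0.44). Inside this cluster, then, the leukotriene receptor gene separated the diets while RGS6 and the endothelin receptor genes overlapped. EDNRA was at 143, 239.7 and 89.6 CPM in obese pigs, with 590.2 and 186 CPM in control pigs (-1.18, SE 0.43). Control replicate 1 weighed most on it, since the value was -0.22 without that pig and -1.69 without control replicate 2. RGS2 was at 89.6, 130.0 and 89.6 CPM against 71.0 and 31.6 CPM (1.06, SE 0.37, and 1.74 without control replicate 1). Of the 8 genes tested here, 5 (RGS2, RGS5, CYSLTR2, EDNRA and PTGER3) had an unadjusted p under 0.05, as had 1181 of all 8549 genes. By edgeR 1 of the 8, CYSLTR2, was called, and 0.129% of all genes. It was called at all 5 other seeds and in 1 of 5 fits with a pig left out, that without obese replicate 2 (3.17), and ran from 2.61 to 3.17 over the 5. In the cluster made without the 10 genes CYSLTR2 was at 286, 174 and 365 CPM in obese and 34.8 and 42.4 CPM in control pigs and was called.

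Away from clusters 11 and 22, which is the other cluster high in RGS6, RGS6 and CYSLTR2 gave other differences between the diets than in the whole class, in an alternative chosen after seeing the data. RGS6 was at 104.5, 51.1 and 80.8 CPM in obese and 154 and 188 CPM in control pigs, now with every obese pig below both control pigs (log2 difference -1.15, SE 0.31, not called), where the whole class had given 0.23. EDNRB was left at 4.60, 4.43 and 2.10 CPM in obese and 1.87 and 1.51 CPM in control pigs, still apart, with a log2 difference of 1.05 (SE 0.44) beside 1.26 in the whole class. CYSLTR2 was left at 2.84, 1.48 and 1.00 CPM against 0.646 and 1.21 CPM, overlapping, on 81 and 40 UMIs (0.88, SE 0.58). RGS2 stayed at 161, 142.5 and 127 CPM against 7.98 and 20.7 CPM and was called (3.28, SE 0.41).

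**Figure D3:**
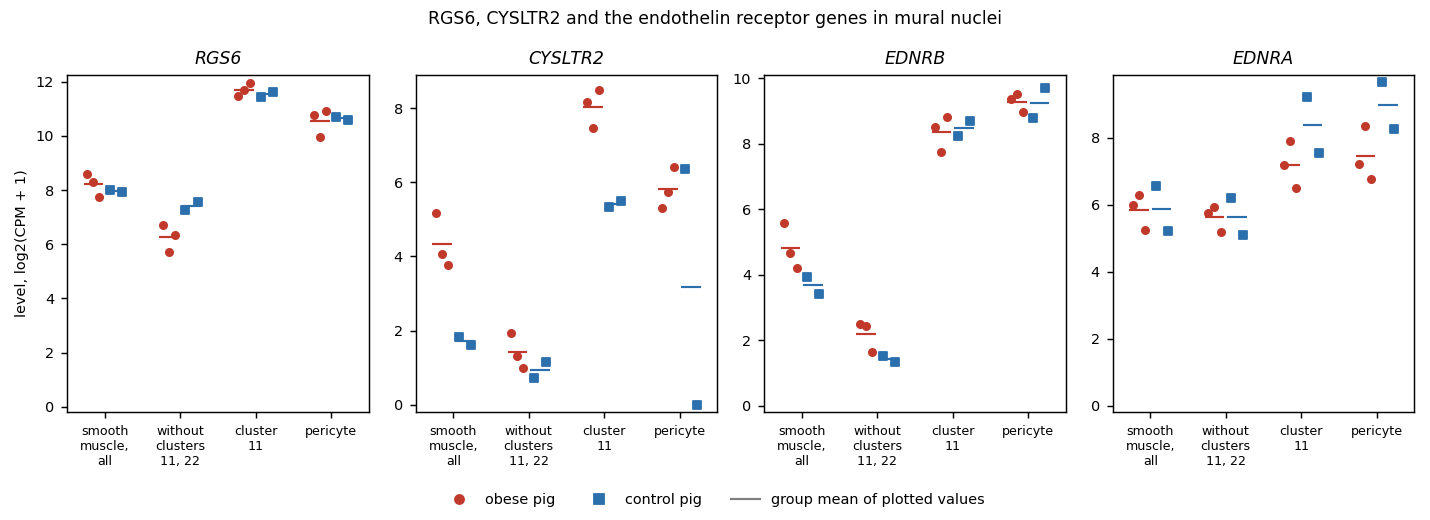
RGS6, CYSLTR2, EDNRB and EDNRA as log2(CPM + 1) in all smooth muscle-like nuclei, in those outside clusters 11 and 22, in cluster 11 and in pericyte-like nuclei, 1 point per pig (red circles obese, blue squares control), bars at the group means of the plotted values. CYSLTR2 is apart between the diets in cluster 11 while RGS6 and EDNRB overlap there, and RGS6 is lower in obese pigs outside clusters 11 and 22.

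Pericyte-like nuclei, 594 in cluster 17, carried the endothelin receptor genes and RGS6 at their highest class level in both diets. They numbered 155, 187 and 76 in obese and 118 and 58 in control pigs. Pericyte markers with UMIs were 10 of 10, summing to 1142 to 1639 CPM in obese and 1644 and 1584 CPM in control pigs. The name rests on 6 of the 10, the least that the naming rule allows. The same list summed to 984 to 1483 CPM in obese and 1488 and 1351 CPM in control fibroblast-like nuclei. Smooth muscle markers summed in pericyte-like nuclei to 4861 to 7785 CPM in obese and 7263 and 5766 CPM in control pigs. EDNRB was at 658, 725 and 495 CPM in obese and 441 and 827 CPM in control pigs, and control pigs held both the lowest and the highest value (0.03, SE 0.34). RGS6 was at 1754, 1006 and 1920 CPM in obese and 1673 and 1543 CPM in control pigs (0.03, SE 0.35). EDNRA was at 149, 328 and 108 CPM in obese pigs against 808 and 309 CPM, the groups still overlapping by obese replicate 2 (-1.49, SE 0.47). It was -0.65 without control replicate 1 and -2.05 without obese replicate 2. In the clustering made without the 10 genes EDNRA was at 127, 326 and 107 CPM against 812 and 330.1 CPM and no longer overlapped. For CYSLTR2 the obese pigs had 38.6, 52.75 and 83.8 CPM while control replicate 1 had 80.8 CPM and control replicate 2 had 0 of its UMIs. The log2 difference was 0.38 (SE 0.79). RGS5 is a common pericyte marker but was on average higher in smooth muscle-like nuclei. It was here at 184.5, 251 and 51.9 CPM in obese and 389 and 128 CPM in control pigs. RGS2 was at 74.4, 49.0 and 19.96 CPM in obese and 0 and 40.8 CPM in control pigs, on 58 and 7 UMIs, and overlapped (1.64, SE 1.00). PTGER3 and HRH1 ran from 72.1 to 237 CPM and from 19.96 to 64.1 CPM over the 5 pigs.

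None of the 8 genes tested in pericyte-like nuclei was called by edgeR, 1 of them (EDNRA) had an unadjusted p under 0.05, and DESeq2 called 0. The background was 0 called of 5348 genes (0%), with 565 at an unadjusted p under 0.05 and 22 called by DESeq2. None of the 8 separated the diets, against 12.3% of genes with every obese pig above and 15.5% with every obese pig below. RGS4 and AGTR1, with 9 and 13 UMIs in all, did not pass the filter on low counts. The sums are of few nuclei, and fewer such cells and less RNA per cell cannot be told apart in any class-wide sum.

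The relation of receptor to RGS genes was read nucleus by nucleus, pig by pig, with every nucleus thinned to 1000 UMIs and shallower ones left out. This kept 3532 of 4570, 4689 of 5782 and 5883 of 7504 smooth muscle-like nuclei of obese pigs and 7546 of 8882 and 3986 of 4528 of control pigs. Of the 24 pairs of a receptor and an RGS gene, 5 had a higher share of receptor-positive nuclei among nuclei with the RGS gene in all 5 pigs: CYSLTR2, EDNRA and EDNRB with RGS6, EDNRA with RGS2, and PTGER3 with RGS5. Another 4 pairs were lower in all 5: HRH1 with RGS6, CYSLTR2 with RGS5, and EDNRA and AGTR1 with RGS4, of which both RGS4 pairs rest on 0 or 1 nuclei with both genes in every pig. Nuclei of a pig are not replicates, so these shares carry no p.

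EDNRB with RGS6 was the clearest pair. In obese pigs 12.7%, 10.1% and 6.48% of nuclei with an RGS6 UMI had an EDNRB UMI, against 1.25%, 0.890% and 0.349% of those without. In control pigs the shares were 4.95% and 3.13% against 0.432% and 0.339%. CYSLTR2 gave 9.38%, 6.95% and 3.47% with RGS6 and 1.02%, 0.468% and 0.110% without in obese pigs. The control pigs gave 1.21% against 0.119%, and 0.223% against 0.170%, the former figure of replicate 2 resting on 1 nucleus. PTGER3 went with RGS5, at 50.0%, 48.6% and 36.1% against 40.0%, 39.9% and 30.5% in obese and 28.6% and 23.8% against 25.8% and 23.2% in control pigs. It was lower in nuclei with RGS6 in 4 of 5 pigs, for instance 25.6% against 43.8% in obese replicate 1. HRH1 was lower with RGS6 in all 5 pigs, by the widest gap in obese replicate 1 (7.50% against 11.9%) and the narrowest in control replicate 1 (15.1% against 15.4%).

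Outside clusters 11 and 22 the pairs of RGS6 with CYSLTR2 and EDNRB lost their size, and 4 pairs were higher in all 5 pigs: EDNRA with RGS2, RGS5 and RGS6, and PTGER3 with RGS5. CYSLTR2 was then found in 0 to 0.848% of nuclei with RGS6 and 0.0738% to 0.410% of those without, higher with RGS6 in 3 of 5 pigs. HRH1, lower with RGS6 in all 5 pigs over the whole class, was higher with RGS6 in 4 of 5 here, for instance 18.2% against 15.5% in control replicate 1. EDNRA with RGS6 stayed higher in all 5, at 4.66%, 4.79% and 5.66% against 4.38%, 4.44% and 2.71% in obese and 7.23% and 2.94% against 5.48% and 2.59% in control pigs, by small gaps in 3 of the pigs. In pericyte-like nuclei, of which 46 to 151 per pig were deep enough, no pair was higher in all 5 pigs. EDNRB with RGS6 was higher in 2 of 5 there, and 42.2% against 28.1% in obese replicate 1 stood beside 26.8% against 40.9% in obese replicate 2.

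**Figure D4:**
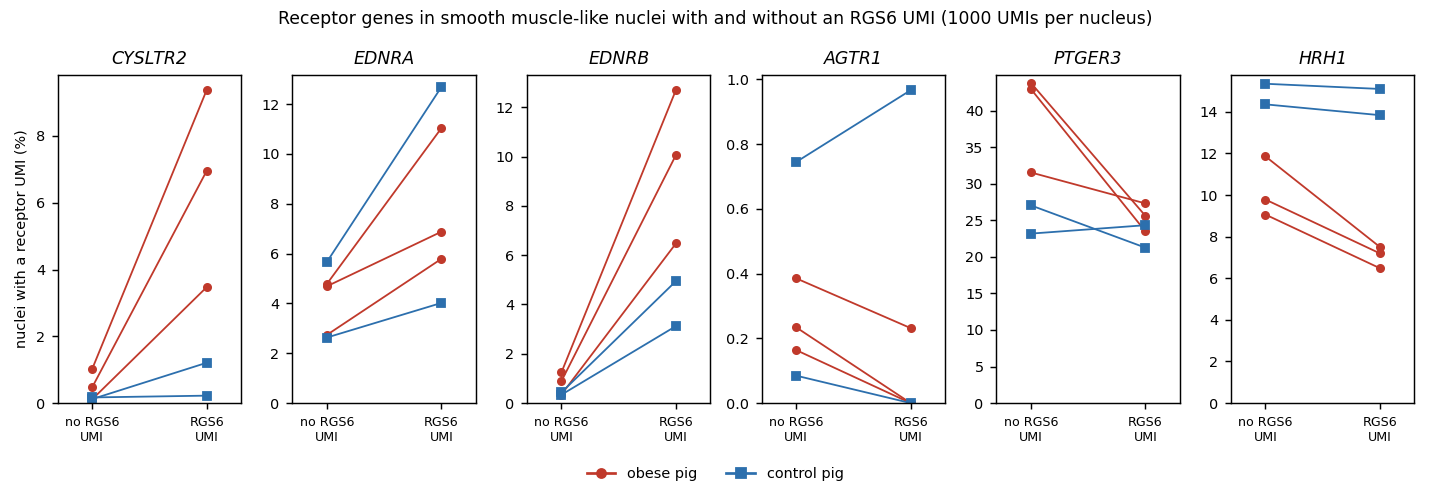
Share of smooth muscle-like nuclei with a UMI of each receptor gene, in percent, among nuclei without (left) and with (right) an RGS6 UMI, every nucleus thinned to 1000 UMIs, with 1 line per pig (red circles obese, blue squares control). CYSLTR2, EDNRA and EDNRB are higher on the right in all 5 pigs and HRH1 is lower in all 5.

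Fibroblast-like nuclei held RGS2 at 55.9, 50.8 and 19.7 CPM in obese and 0.901 and 6.80 CPM in control pigs, on 132 and 8 UMIs, with no overlap (3.84, SE 0.72). After thinning, 3.81%, 4.96% and 2.87% of these nuclei in obese pigs had an RGS2 UMI (8.09%, 9.29% and 4.11% unthinned), and 0 and 0.372% in control pigs (0.283% and 1.60% unthinned). In obese replicate 1 and both control pigs that was not above the share in T or NK cell-like nuclei. RGS6 was also apart, at 155, 453.5 and 201 CPM against 150.5 and 76.0 CPM (1.24, SE 0.42, and 0.70 without obese replicate 2), obese replicate 1 lying just above control replicate 1. PTGER3 overlapped, at 184, 191 and 52.2 CPM against 64.0 and 76.0 CPM. CYSLTR2 was seen in 6 UMIs of the obese pigs and 0 of the control pigs, which allows up to 3 UMIs over that group, and is given no fold. AGTR1 ran from 0 in control replicate 2 and 1.16 CPM in obese replicate 3 to 21.8 CPM in obese replicate 2. Of the 7 genes tested none was called by edgeR, against 0.288% of 8685 genes, and RGS2 lay just outside the threshold (edgeR adjusted p = 0.0539). RGS2 passed the low-count filter here only by its levels in obese pigs. At an unadjusted p under 0.05 there were 3 (RGS2, RGS6 and PTGER3), and DESeq2 called 1, RGS2. Of all 8685 genes, 1004 had such a p and DESeq2 called 100. Without obese replicate 3, RGS2 (4.16) and PTGER3 (1.40) were called. Of the 7, 2 had every obese pig above both control pigs and 0 below, against 13.2% and 14.3% of genes. Macrophage markers were at 17.4 to 123.5 CPM in obese and 4.96 and 4.54 CPM in control pigs in these nuclei, with 10 of 10 detected, and their part was not tested.

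In endothelial-like nuclei 5 of the 7 genes tested were higher in every obese pig and were called by edgeR. These were RGS2, CYSLTR2, EDNRB, PTGER3 and HRH1, in a class where 8.03% of 6564 genes were called and where 19.7% lay above and 25.2% below in every obese pig. EDNRB and CYSLTR2 passed the low-count filter only by their levels in obese pigs, and RGS2 and HRH1 not by control pigs alone. The counts over genes tested are therefore values only. EDNRB, whose product on endothelium is known to release nitric oxide, was at 59.7, 76.3 and 35.4 CPM in obese and 10.2 and 4.07 CPM in control pigs (2.97, SE 0.50). It was called in 4 of 5 fits with a pig left out, and not without control replicate 2 (2.53). HRH1 was at 102, 122 and 142 CPM against 50.8 and 14.6 CPM (1.93, SE 0.48), and CYSLTR2 at 28.9, 40.1 and 79.6 CPM against 12.2 and 4.88 CPM (2.50, SE 0.61). RGS2 was at 125, 164 and 79.6 CPM against 14.2 and 48.8 CPM (2.08, SE 0.52), and PTGER3 at 114, 215.5 and 70.8 CPM against 48.4 and 39.9 CPM (1.65, SE 0.42). With 1 pig left out, HRH1 was called only without control replicate 1 (3.09), RGS2 only without control replicate 2 (3.16) and PTGER3 only without obese replicate 3 (1.89). CYSLTR2 was called only without obese replicate 1 (2.81) or obese replicate 2 (2.69). With doublets kept, HRH1 (1.29) and PTGER3 (1.15) were not called. The mean of PTGER3, 97.6 CPM, was its lowest of the 6 classes. Its share of nuclei with a UMI after thinning was 10.7% and 8.43% in obese replicates 1 and 3 and 4.97% in control replicate 1. These were below the 21.95%, 13.04% and 16.7% of T or NK cell-like nuclei, while obese replicate 2 and control replicate 2 were above. The RGS2 share was below only in control replicate 1 (0.292% against 1.85%). The part of free RNA was not tested.

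The class had 2 clusters, and the diets drew on them unequally. Cluster 15, led by CLEC2B, ADGRF5, FLT1, VEGFC and EMCN, held 78.8%, 89.4% and 82.6% of endothelial-like nuclei in obese pigs and 38.8% and 25.1% in control pigs. The rest was cluster 18, led by COL23A1, GRIP1, MYRIP, NOS3 and CYYR1, with a median of 7102.5 UMIs per nucleus against 1215 in cluster 15. The levels of HRH1, CYSLTR2 and EDNRB were higher in cluster 15, with control means of 180.5, 72.7 and 46.6 CPM there and 11.4, 0.665 and 2.24 CPM in cluster 18. Cluster 18 was deeper, held most control nuclei and had a part of the UMIs of these 3 genes in control pigs, and what depth did to that part was not tested. It held 17.8% and 77.8% of HRH1 UMIs of control replicates 1 and 2, 23.1% and 40.0% of EDNRB UMIs and 3.23% and 16.7% of CYSLTR2 UMIs, against 0 to 20% in any obese pig for the 3 genes. Inside cluster 15 HRH1 was at 183, 145.5 and 210.3 CPM in obese and 316 and 44.8 CPM in control pigs, overlapping (-0.11, SE 0.54). Control replicate 1 sets that value, which was 2.06 without it and -0.72 without control replicate 2, whose level rests on 4 UMIs. CYSLTR2 overlapped too, at 45.7, 47.75 and 118 CPM against 89.5 and 56.0 CPM (-0.09, SE 0.56), and its difference ran from -0.70 to 0.38 with 1 pig left out. EDNRB was at 118, 88.7 and 52.6 CPM against 59.7 and 33.6 CPM (0.80, SE 0.51), and was 1.41 without control replicate 1. For these 3 receptor genes no difference was detectable within cluster 15 at this depth. There RGS2 was at 145, 168 and 78.85 CPM against 11.9 and 22.4 CPM (3.16, SE 0.61) and PTGER3 at 194, 209 and 92.0 CPM against 59.7 and 67.2 CPM (1.44, SE 0.47), both apart.

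None of the 7 genes tested in cluster 15 was called by edgeR, 2 (RGS2 and PTGER3) had an unadjusted p under 0.05, and 0 of 4639 genes were called, with 476 at an unadjusted p under 0.05. No other tool was run on single clusters. In cluster 18 none of 3 tested genes was called, against 0.725% of 4414, and 2 (RGS2 and RGS6) had an unadjusted p under 0.05. So had 698 of the 4414. RGS6 there was at 972, 1053 and 334 CPM in obese and 170.5 and 221 CPM in control pigs (2.11, SE 0.52), and was called without obese replicate 3 (2.46). Smooth muscle markers summed to 1180 to 2253 CPM in endothelial-like nuclei of obese pigs and 1162 and 703 CPM in those of control pigs, 10 of 10 detected, and within cluster 15 to 1634 to 2472 and 2619 and 1579 CPM. Macrophage markers summed to 20.6 to 200.3 CPM and 3.54 and 6.51 CPM in the class, 9 of 10 detected with C1QA at 0. Their part in these values was not tested.

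**Figure D5:**
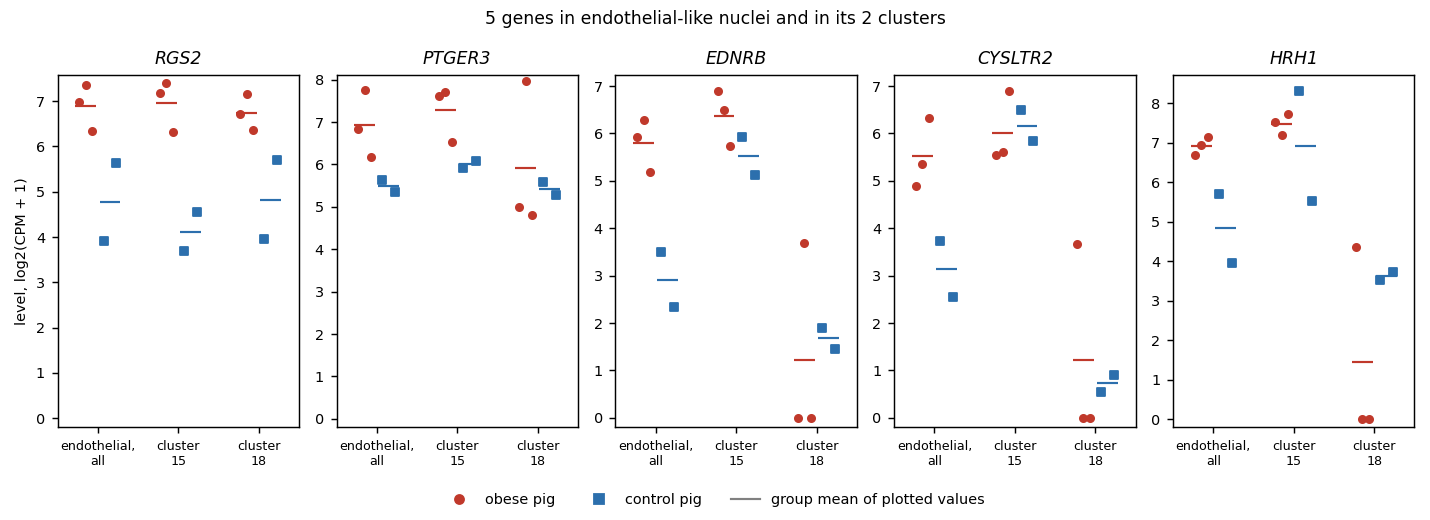
RGS2, PTGER3, EDNRB, CYSLTR2 and HRH1 as log2(CPM + 1) in all endothelial-like nuclei, in cluster 15 and in cluster 18, 1 point per pig (red circles obese, blue squares control), bars at the group means of the plotted values. EDNRB, CYSLTR2 and HRH1 separate the diets in the class and overlap within cluster 15, where RGS2 and PTGER3 stay apart.

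The difference between diets was itself compared between classes, with the pig as a block. Against smooth muscle-like nuclei, 2 of the 10 genes differed in endothelial-like nuclei (HRH1 and EDNRB, 4.1% of 16935 genes called), 0 in pericyte-like nuclei (0.385% of 16122) and 0 in fibroblast-like nuclei (0.0303% of 16498). The HRH1 effect was 2.54 higher in endothelial-like than in smooth muscle-like nuclei (SE 0.38), where the median of all genes was -0.17. It ran from 1.91 to 3.66 with a pig left out and was called in 5 of 5. The EDNRB effect was 1.63 higher (SE 0.52, edgeR adjusted p = 0.0424). It was called without obese replicate 1 (2.10) or obese replicate 3 (1.72), not without obese replicate 2 (1.35), control replicate 1 (2.26) or control replicate 2 (1.44), and not by DESeq2 (1.87). The values of both genes within cluster 15, given above, belong beside these. In pericyte-like nuclei 3 genes (CYSLTR2, EDNRA and EDNRB) had an unadjusted p under 0.05 and DESeq2 called 0. Of all 16122 genes, 849 had such a p and DESeq2 called 10. CYSLTR2 was -2.49 (SE 0.68) and EDNRA -1.39 (SE 0.38), both with an edgeR adjusted p of 0.0624. CYSLTR2 was called without obese replicate 3 (-2.94) or control replicate 2 (-3.27), but without control replicate 1, which leaves a control pig with 0 CYSLTR2 UMIs in pericyte-like nuclei, it took the other sign (8.66, SE 6.11). In fibroblast-like nuclei 1 gene, RGS6, had an unadjusted p under 0.05 (0.94, SE 0.40) and DESeq2 called 0. RGS6 was called without obese replicate 1 (1.46). Of all 16498 genes, 1082 had such a p and DESeq2 called 13.

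Around these genes, 140 others of the same pathways were followed in 4 lists, of which 131 were matched by symbol. In smooth muscle-like nuclei 102 were tested and 0 were called by edgeR, with 23 at an unadjusted p under 0.05 and 7 called by DESeq2. Of all 17804 genes, 2365 had such a p and DESeq2 called 520. Of 40 other vasoactive receptor genes, 23 lay above 0, with a median log2 difference of 0.12 beside 0.01 for all genes. VIPR2, a receptor for vasoactive intestinal peptide, was at 104, 342 and 187 CPM in obese and 233 and 442 CPM in control pigs, and RAMP1, a subunit of receptors for calcitonin gene-related peptide, at 146, 123 and 123 CPM against 125 and 193 CPM. The VIPR2 groups overlapped, as did those of RAMP1. The 12 other RGS genes tested had a median of 1.07, with 10 above 0. The most abundant did not share it: RGS12 was at 66.6, 70.0 and 82.95 CPM in obese and 68.4 and 93.4 CPM in control pigs, and RGS17 at 14.4, 15.8 and 4.90 against 11.01 and 29.4 CPM. For 35 genes of G proteins and effectors the median was 0.04. PRKG1, the kinase through which cyclic GMP relaxes smooth muscle, was at 7473 to 9608 CPM in obese and 8553 and 8593 CPM in control pigs, and PLCB4, a phospholipase C downstream of Gq, at 1040 to 1285 against 1413 and 1088 CPM. For 15 ligands and their enzymes it was 0.03. ECE1, which encodes an enzyme that makes mature endothelin, was at 49.05, 24.5 and 28.6 CPM against 16.95 and 62.6 CPM.

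In pericyte-like nuclei 40 of these genes were tested and 0 called by edgeR or by DESeq2, with 11 at an unadjusted p under 0.05 by edgeR. Of all 5348 genes, 565 had such a p. RGS16, another RGS gene and one of the leading genes of the cluster, was at 176, 141 and 423 CPM in obese and 86.5 and 408 CPM in control pigs. RAMP1 was at 82.6, 81.0 and 83.8 CPM in obese and 138 and 186 CPM in control pigs (-0.92, SE 0.37), and GRK5, a kinase that desensitises receptors, at 2010, 1204 and 1872 against 1018 and 932 CPM (0.86, SE 0.33). Both were apart between the groups and neither was called. In fibroblast-like nuclei 1 of 55 was called. PTGS2, the inducible cyclooxygenase that makes the precursor of prostaglandin E2, rose from 8.11 and 5.67 CPM to 34.4, 36.3 and 39.4 CPM (2.36, SE 0.41, edgeR adjusted p = 0.038). Its call held only without obese replicate 2 (2.42) or obese replicate 3 (2.26) when 1 pig was left out, and not without obese replicate 1 (2.42), control replicate 1 (2.64) or control replicate 2 (2.20).

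In endothelial-like nuclei 3 of 47 were called, in a class where the clusters differ as described. BDKRB2, the bradykinin receptor gene, rose from 19.3 and 6.51 CPM to 69.3, 59.1 and 159 CPM (2.88, SE 0.61, edgeR adjusted p = 0.0236), and the call was lost without control replicate 2 (2.38). PTGS2 rose from 27.2 and 17.1 CPM to 441, 49.6 and 717 CPM (4.28, SE 0.96, edgeR adjusted p = 0.0277), lost without obese replicate 3 (3.49), control replicate 1 (4.65) or control replicate 2 (4.01), or with doublets kept (3.36). PTGS1, the constitutive cyclooxygenase, fell from 58.7 and 77.3 CPM to 15.4, 24.8 and 17.7 CPM (-1.74, SE 0.38, edgeR adjusted p = 0.0251). With 1 pig left out that call was lost without obese replicate 1 (-1.57), control replicate 1 (-1.95) or control replicate 2 (-1.53). The median of the 10 genes themselves was 0.60 in smooth muscle-like, 0.03 in pericyte-like, 0.51 in fibroblast-like and 1.93 in endothelial-like nuclei, over those that passed the filter. Some passed it only by their levels in obese pigs, so these medians are values only.

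Genes with the most similar pattern were sought over 30 sums (6 classes by 5 pigs), which share libraries and depth, by Pearson correlation of log2(CPM + 1) among genes with a mean of at least 5 CPM. EDNRA was most like ANGPT4 (r = 0.889), NPNT (0.861) and PTPRR (0.846), and RGS6 most like MAP3K20 (0.864), SORBS3 (0.857) and HELB (0.854). RGS5 went with CALD1 (0.846), KCNAB1 (0.831) and TPM1 (0.823), of which CALD1 and TPM1 encode proteins of the contractile apparatus. EDNRB went with HIPK3 (0.825), ADAMTS9 (0.790) and ADGRV1 (0.787), PTGER3 with ADAMTS18 (0.810), PDZRN4 (0.798) and LPP (0.779), and HRH1 with PLOD2 (0.802), PTPN3 (0.780) and CENPV (0.762). CYSLTR2 was nearest to APOLD1 (0.757), VCAM1 (0.727) and ETS2 (0.719), and RGS4 to APOLD1 (0.720), ARHGAP17 (0.705) and LDHC (0.684). The nearest to RGS2 were DDIT4 (0.710), PSMC6 (0.691) and CCT4 (0.665), and to AGTR1 CBR4 (0.761), APIP (0.709) and HSF5 (0.684). Among the 10 genes themselves the highest correlation was that of RGS5 with EDNRA (0.690), followed by EDNRA with RGS6 (0.627), and RGS2 with CYSLTR2 had 0.246.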

How the data were processed

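Single-nucleus RNA sequencing counts of 5 pigs were analysed. The deposited matrices hold raw UMI counts per gene and barcode; the authors used Cell Ranger 5.0 and Seurat 5.0, per the submitters' processing notes, while the matrix headers name cellranger 7.1.0. Of 35670 features, 17508 carried a symbol and 223 were named from an identifier table. Of 45580 barcodes, 77 with under 300 genes or over 5% mitochondrial UMIs were removed. The doublet caller's own threshold marked 2 barcodes, so the top-scoring ones up to 0.8% per 1000 barcodes were removed instead (3517), leaving 41986 nuclei with 143659131 UMIs.

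Clustering used scanpy 1.11.5 and leidenalg 0.10.2 in Python 3.11.15 (3000 variable genes, 30 components, 20 neighbours, resolution 1.3, seed 1). The libraries were joined with no correction for differences between them, so clusters can follow single libraries. The graph weighted neighbours by the Jaccard index of their neighbour sets, from exact distances. This graph replaced the default graph of scanpy after results of the default had been seen, because the partition then changed with the rounding of the computer's arithmetic. CYSLTR2 had been called in smooth muscle-like nuclei with the earlier graph. A cluster was named where 60% of a marker list reached 20 CPM and 2 times its 25th percentile over clusters. The resolution and this share were chosen after values were seen. UMIs were summed per pig and class (at least 20 nuclei in every pig) and fitted with edgeR 4.0.16 in R 4.3.3 (TMM, quasi-likelihood, Benjamini-Hochberg over all genes passing the low-count filter). A gene can pass that filter by its counts in 1 group alone. DESeq2 1.42.0, other size factors, no filter, a replicate block, doublets kept and each pig left out were alternatives. Fits were tested on simulated data. P-values rest on the spread between 5 pigs, with 3 residual degrees of freedom, and edgeR draws each gene's spread toward that of all genes. The p-values and SE of edgeR are therefore not those of 3 degrees of freedom alone. Intervals and floors cover counting error only.

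The 10 genes, the marker lists and the companion lists were chosen with earlier results of these data known. Named beside the 10 genes were the companion genes called, those of highest mean CPM in each list, and the 3 genes of most similar pattern per member. Deviations from the group mean had correlations of 0.046 and -0.065 between same-numbered pigs. The deviations of 2 control pigs mirror each other, so these values cannot show whether pigs were paired.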

Additional observations from a re-analysis of the deposited data

Results flagged for a closer look

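The diet effect of 2 genes differed between classes by the test of the difference itself. For HRH1 it was 2.54 higher on the log2 scale in endothelial-like than in smooth muscle-like nuclei, and for EDNRB it was 1.63 higher. Within endothelial-like cluster 15, where the level of both genes was higher, the log2 difference between diets was -0.11 for HRH1 and 0.80 for EDNRB, with overlapping groups. Without control replicate 1 these were 2.06 and 1.41. In control replicate 2, 77.8% of HRH1 and 40.0% of EDNRB UMIs of the class lay in the other cluster, number 18, and the part of the unequal cluster shares was not tested. Groups of 3 and 2 pigs were too small to look for a single pig far from the others.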

How the results depend on the processing

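No called difference of the 10 genes between diets changed sign in another fit of the same class. HRH1 and CYSLTR2, called in endothelial-like nuclei, had the other sign inside cluster 15 alone (-0.115 and -0.094). Fits of single clusters are not among the alternative values counted next. Of 542 alternative values for 32 differences of the 10 genes, 501 lay within 1 SE of the reported value and 20 had the other sign, all among differences that were not called. In smooth muscle-like nuclei the 1 gene called became 0 with DESeq2 size factors, 3 with DESeq2, 4 with no filter, 2 with the replicate block, with doublets kept, without the GPRC5A cluster or clustered without the 10 genes, 0 to 2 over the other seeds (0 at seed 2, 2 at seeds 3 and 6), and 0 to 2 with 1 pig left out. The 0 companion genes there became 7 with DESeq2, 13 with no filter, 2 with the block, 1 at seed 6, 1 in cluster 11 alone and 0 to 2 with 1 pig left out. In pericyte-like nuclei 0 became 1 with no filter, for members and companion genes alike. In fibroblast-like nuclei the 0 members called became 1 with DESeq2, 2 with no filter, 3 with the block, 1 with doublets kept, 1 clustered without the 10 genes and 0 to 2 with 1 pig left out, and the 1 companion gene became 2 with no filter, 3 with the block and 0 to 2. In endothelial-like nuclei 5 members became 3 with doublets kept, 0 in cluster 15 or 18 alone and 1 to 2 with 1 pig left out, and 3 companion genes became 5 with DESeq2, 7 with no filter, 6 with the block, 0 in either cluster alone and 0 to 3 with 1 pig left out. The block ended the endothelial-like call of CYSLTR2 (2.01). Of genes with another diet effect, the 0 of pericyte-like nuclei became 1 with size factors (EDNRA), the 0 of fibroblast-like nuclei 1 with no filter (RGS6), both 0 to 1 with 1 pig left out, and the 2 of endothelial-like nuclei 1 with DESeq2 or no filter and 1 to 2 with 1 pig left out. The 5 receptor and RGS pairs became 3 at 500 UMIs and 13 unthinned, and the 0 of pericyte-like nuclei 2 unthinned. The cause was not tested.

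Over all genes, the 16 called in smooth muscle-like nuclei became 0 with size factors, 520 with DESeq2, 869 with no filter, 140 with the block, 26 with doublets kept, 5 without clusters 11 and 22 and 0 to 37 over the other seeds, and 0 to 122 with 1 pig left out. The 0 of pericyte-like nuclei became 22 with DESeq2 and 83 with no filter, the 25 of fibroblast-like nuclei 100, 252 and, with the block, 373 (45 with doublets kept, 0 to 196 with 1 pig left out), and the 527 of endothelial-like nuclei 1074 with no filter and 117 to 502 with 1 pig left out. In cluster 11, 11 became 18 at seed 6 and 1 to 38 with 1 pig left out, in cluster 18, 32 became 0 to 85, and in cluster 15, 0 became 0 to 2. Of genes with another diet effect than in smooth muscle-like nuclei, the 62 of pericyte-like nuclei became 10 with DESeq2 and 10 to 102 with 1 pig left out, the 5 of fibroblast-like nuclei 13 with DESeq2, 116 with no filter and 1 to 94, and the 695 of endothelial-like nuclei 343 with DESeq2 and 204 to 680. For the difference between endothelial-like and smooth muscle-like nuclei, 315 genes were higher and 380 lower, and 504 and 265 with DESeq2 size factors, which moved the median of all genes from -0.17 to 0.03. Single clusters, the added class definitions, the other seeds and the clustering without the 10 genes were chosen after seeing the data. The pairs were not recomputed at the other seeds. The labels give same-numbered pigs only a shared number, so the block is not read as a pairing. Few nuclei and UMIs limit the values of the smaller classes.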

Other observations

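HRH1, the histamine receptor gene, had its highest mean level over the 28 clusters in an unnamed one of 179 nuclei, number 24, led by KCNIP1 and ITGB4. It was at 833, 762.5 and 721 CPM there in obese pigs and 984 and 223 CPM in control pigs, the last from 4 nuclei and 1 UMI. In the unnamed cluster 9, RGS2 was at 167, 205 and 72.6 CPM in obese and 23.5 and 59.5 CPM in control pigs, and PTGER3 at 677, 491 and 423 CPM against 23.5 and 159 CPM. Macrophage-like nuclei held RGS2 at 269, 176 and 259 CPM in obese and 13.3 and 73.9 CPM in control pigs, on 1548 and 4 UMIs. In Schwann cell-like nuclei RGS2 was at 29.8, 49.1 and 233 CPM in obese and 11.55 and 7.26 CPM in control pigs, on 63 and 3 UMIs. ECE1, which encodes an enzyme that makes mature endothelin, was called by edgeR as higher in obese pigs in cluster 11 (log2 difference 2.47, SE 0.41, adjusted p = 0.0441). With 1 pig left out it was called only without obese replicate 2 (2.61), and was at 2.21 to 2.72 without each of the others.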
